A study of Oryctolagus cuniculus with 3 samples.

Results

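The genes described here are 6 regulators of axis formation and of the hypoblast: the secreted signals and antagonists DKK1, CER1, BMP2 and WNT3 and the transcription factors GATA4 and GSC. They were chosen by name, with earlier results of these data known. Their probes were taken from the array's own annotation by symbol, RefSeq transcript or gene number. All 18 of their probes on the array passed into the authors' value table, so that 6 of the 6518 genes with a symbol there are covered: 8 probes for BMP2, 5 for CER1, 2 for WNT3 and 1 each for DKK1, GATA4 and GSC.

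The RNA came from rabbit late blastocysts on day 6 of development. After artificial insemination, morulae were recovered on day 3. One set was slow-frozen and the other vitrified; each then went into recipient does and was collected 3 days later, so that both groups were stored at low temperature and both developed in a recipient. Vitrification passed the morulae through dimethyl sulphoxide and ethylene glycol, at 12.5% each for 2 min and then at 20% each for 30 s, before straws were plunged into liquid nitrogen. The sources used here give neither the slow-freezing protocol nor the number of embryos behind an RNA sample. Each of 3 Agilent rabbit arrays compared 1 RNA sample of frozen embryos directly with 1 of vitrified embryos, and the labels call the arrays biological replicates. Frozen embryos were in the red channel (Cy5) on replicates 1 and 3 and in the green channel (Cy3) on replicate 2. There was no unfrozen comparison group among the samples used here. Each value is the log2 of frozen divided by vitrified signal, so a positive one means more signal in frozen than in vitrified embryos.

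In the mammalian blastocyst the hypoblast is the layer that lines the cavity beside the epiblast. GATA4 is one of the transcription factors that establish and maintain it. An anterior part of this layer secretes antagonists, which restrict the primitive streak to the opposite side. Among them are the Wnt inhibitor DKK1 and the Nodal and BMP inhibitor CER1. WNT3 is a ligand that is needed to start the streak, BMP2 is a ligand of extraembryonic endoderm and surface tissues, and GSC is a homeobox repressor of the organizer.

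The probes are shown because they fix what each value can resolve: several are near-copies of one another, and each reads a single stretch of its transcript. Each is 60 bases long, as the array files give it. Capitals mark the TAG triplet at the end of the open reading frame in DKK1 and the second WNT3 probe. In CER1 and BMP2 they mark the stretch shared by the 5 overlapping probes, which is 56 bases in CER1 and 53 in BMP2. The 2 outermost of those 5 are printed.
DKK1, base 889: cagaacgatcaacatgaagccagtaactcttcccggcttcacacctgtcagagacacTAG
CER1, base 528: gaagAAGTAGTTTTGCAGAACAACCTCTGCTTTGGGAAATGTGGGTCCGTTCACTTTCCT
CER1, base 532: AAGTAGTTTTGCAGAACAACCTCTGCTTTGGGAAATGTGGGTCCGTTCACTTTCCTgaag
GATA4, base 914: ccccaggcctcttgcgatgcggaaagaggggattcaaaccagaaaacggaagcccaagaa
BMP2, base 1189: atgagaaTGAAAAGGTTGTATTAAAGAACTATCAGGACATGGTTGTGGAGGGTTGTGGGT
BMP2, base 1196: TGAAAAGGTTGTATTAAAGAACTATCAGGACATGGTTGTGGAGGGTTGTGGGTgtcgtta
WNT3, base 863: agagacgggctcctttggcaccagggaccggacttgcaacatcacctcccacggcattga
WNT3, base 1008: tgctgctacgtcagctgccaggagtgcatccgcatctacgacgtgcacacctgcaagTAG
GSC, base 721: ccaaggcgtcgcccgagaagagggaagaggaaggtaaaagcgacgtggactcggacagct

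The base given with each name is the probe's start in its transcript, per the array files. The same files place the DKK1 probe at chr18:33156307-33156366 on the minus strand, the first CER1 probe at chr1:39249892-39249951 on the plus strand and the GATA4 probe at chr2:38226727-38226786 on the minus strand. The first BMP2 probe is placed at chr4:29449455-29449514 on the minus strand and the first WNT3 probe at chr19:45863261-45863320 on the plus strand, while the GSC probe is unmapped there. The sources used here do not name the genome build behind these positions. The other 3 probes of BMP2 start at bases 1962, 2033 and 2073 and do not overlap the first 5. The most distal of them holds the letters AATAAA, the usual polyadenylation signal, which 4.46% of all probes of the value table hold on the probe strand and 2.86% on the other strand.

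The 3 arrays differed among themselves across the whole table, and this bears on every value below. Over 22839 probes, which are not independent of one another, Pearson's r was 0.48 between replicates 2 and 3, -0.36 between replicates 1 and 2 and -0.01 between replicates 1 and 3. The direction of the column of replicate 2 is likely and not stated: its 10 spike-in probes ran against those of replicates 1 and 3 (r = -1.0 with each, against 0.99 between replicates 1 and 3), as they would if the authors had turned the dye-swapped ratio to frozen over vitrified. Means with the sign of replicate 2 turned are therefore given for each gene. Within 1 array the spot error that the scanner software attaches to a ratio was 0.21 to 0.30 on replicate 1 and 0.21 to 0.25 on replicate 3 for the 18 probes; replicate 2 has no such value here.

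The 6 genes fell into 3 patterns. CER1 and GATA4 lay below 0 on every array, DKK1, BMP2 and WNT3 lay above 0 on replicate 1 and below 0 on replicates 2 and 3, and GSC did the reverse. The first pattern holds for 2 of 6 genes by the brightest probe and for 11.6% of all genes with a symbol, the second for 3 of 6 and 14.2%, and the third for 1 of 6 and 25.4%. By mean, 5 of the 6 genes lay below 0, against 53.3% of all genes, and the median of the 6 means was -0.34 against -0.01. With the sign of replicate 2 turned these medians were -0.13 and -0.04. By probe, 11 of the 18 had the second pattern, against 16.7% of all probes, and 6 had a mean of 1.5-fold lower or more, against 1.87%. By gene, DKK1 alone had such a mean, against 1.8% of all genes. Since most of the 18 probes belong to BMP2 and CER1 and overlap, the counts by probe repeat a few measurements. The 6 genes were chosen with earlier results of these data known. Their shares and medians beside those of all genes are therefore description and not support for a difference.

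**Figure D1:**
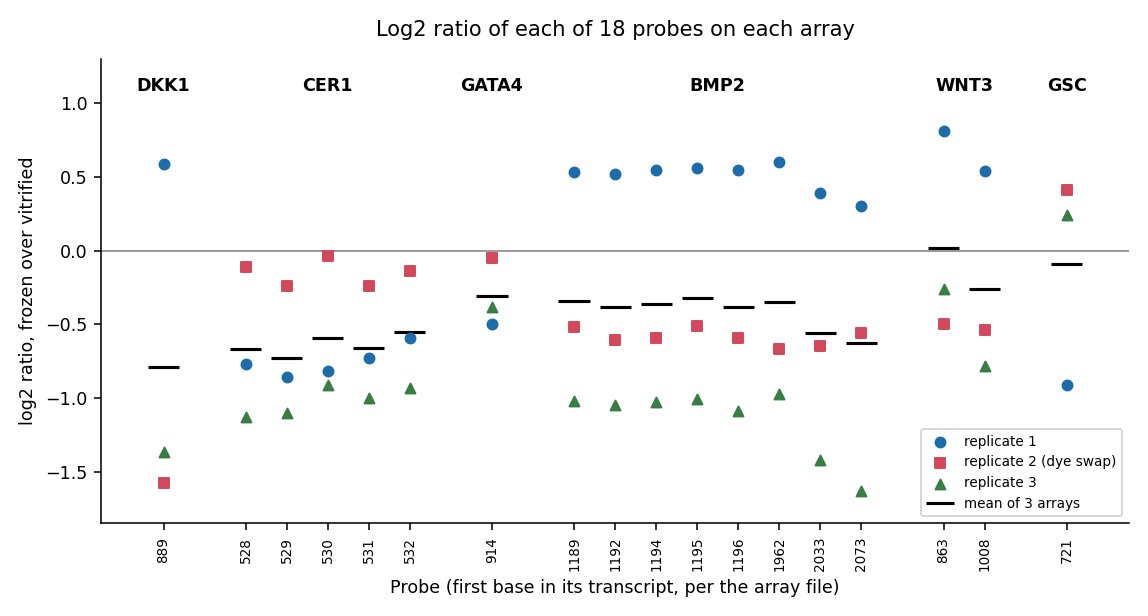
Log2 ratio of frozen over vitrified embryos (vertical axis) for each of the 18 probes, ordered by gene and by first base in the transcript (horizontal axis), with a point for each array and a bar for the mean of 3 arrays. All CER1 and GATA4 points lie below 0, while DKK1, BMP2 and WNT3 have replicate 1 above 0 and replicates 2 and 3 below it.

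No probe of the 6 genes was called. Each ratio was tested against 0 by limma's moderated test; with Benjamini-Hochberg adjustment over the whole table, 0 of the 18 probes had an adjusted p under 0.05, and adjusted p ran from 0.87 to 1.00. Over all probes the test called 0 of 22839 (0%). Without adjustment, 1020 probes had p under 0.05; 5 of the 18 were among them in limma, against 4.47% of all probes, and these 5 are the near-identical probes of CER1. An exact sign-flip test over 3 arrays cannot go below p = 0.25, so none is given. In whole embryos, fewer cells of a type and less RNA per cell cannot be told apart.

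DKK1, which blocks the Wnt co-receptors, had the mean furthest from 0. Its log2 ratios on replicates 1, 2 and 3 were 0.59, -1.58 and -1.37. Replicates 2 and 3, which have opposite dyes, thus lay close together and replicate 1 lay on the other side of 0. The mean was -0.79 ± 1.19 (SD, n = 3), which is 1.73-fold less signal in frozen than in vitrified embryos (limma, adjusted p = 1.00). The spot errors were 0.21 on replicate 1 and 0.24 on replicate 3, smaller than the ratio on each of these arrays, which lay on opposite sides of 0. The mean with the sign of replicate 2 turned was 0.27. The probe was bright: on replicate 1 its processed log2 signal was 10.29 in frozen and 9.71 in vitrified embryos, and on replicate 3 it was 10.13 and 11.50.

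**Figure D2:**
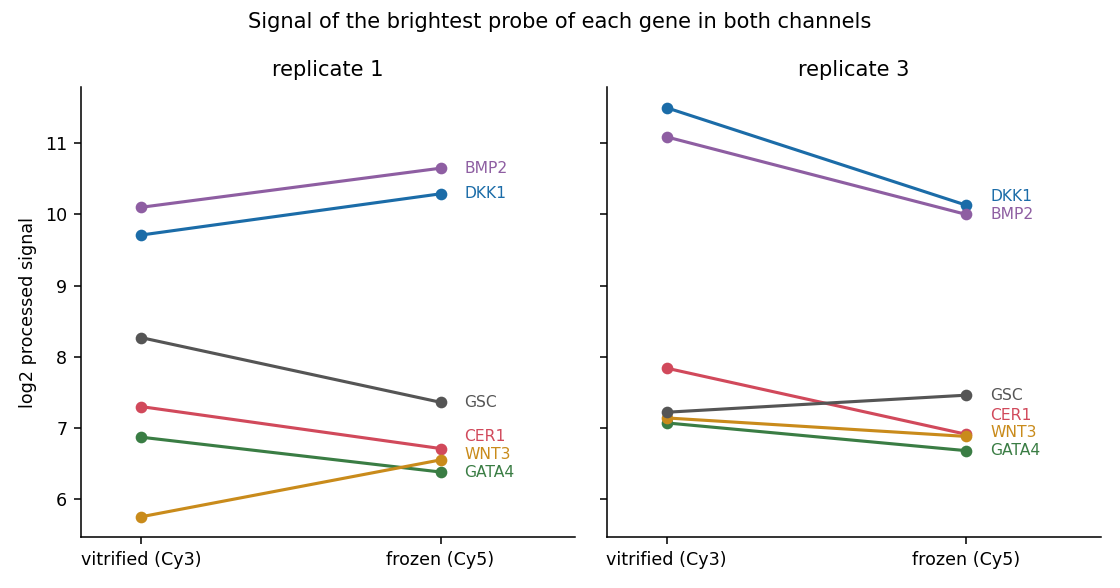
Processed log2 signal (vertical axis) of the brightest probe of each gene in the vitrified (Cy3) and frozen (Cy5) channel of replicates 1 and 3, a line per gene; levels of different probes are not comparable. DKK1 runs from 9.71 up to 10.29 on replicate 1 and from 11.50 down to 10.13 on replicate 3, and BMP2 turns in the same way.

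BMP2, the ligand with the most probes, had the same sign as DKK1 on each array. Its 8 probes lay between 0.30 and 0.60 on replicate 1, between -0.67 and -0.51 on replicate 2 and between -1.63 and -0.97 on replicate 3. No probe crossed over to the values of another array. The SD over arrays of the mean of the 8 probes was 0.84. The SD over probes was 0.10, 0.06 and 0.24 on replicates 1, 2 and 3, with 5 of the probes overlapping. On replicate 3 the probes spread over more than the gap to those of replicate 2. The brightest probe, at base 1196, had 0.55, -0.59 and -1.09 on replicates 1, 2 and 3 and a mean of -0.38 ± 0.84 (SD, n = 3; limma, adjusted p = 1.00). With the sign of replicate 2 turned its mean was 0.019, and the 8 probes ran from -0.26 to 0.10.

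The 5 overlapping BMP2 probes read nearly the same bases and are 1 measurement repeated, not replicates. They spanned -1.09 to -1.01 on replicate 3. The 3 distal probes had -0.97, -1.42 and -1.63 there, in order of position. The mean of the 3 distal probes minus that of the 5 overlapping probes was -0.11, -0.06 and -0.30 on replicates 1, 2 and 3. For the most distal probe alone it was -0.24, 0.01 and -0.59. In 211 transcripts whose outermost probes start 500 bases or more from each other, the distal minus the proximal ratio had a median of 0.26, -0.13 and -0.06. The most distal BMP2 probe thus lay below that median on replicates 1 and 3 and above it on replicate 2, and on replicates 1 and 3 it was outside the quartiles, which were -0.01 to 0.54 and -0.26 to 0.12. The part of transcript position in the result was not tested.

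WNT3, the streak-inducing ligand, was dim and its mean was near 0. The brighter probe, at base 863, had 0.81, -0.50 and -0.26 on replicates 1, 2 and 3, a mean of 0.02 ± 0.69 (SD, n = 3). The other, at base 1008, had 0.54, -0.54 and -0.78, a mean of -0.26 ± 0.70 (limma, adjusted p = 1.00 for both probes). The 2 probes had the same sign on each array but gave means of opposite sign, and on replicate 3 they differed by more than their spot errors of 0.21 and 0.23. With the sign of replicate 2 turned their means were 0.35 and 0.10.

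CER1, the antagonist of Nodal and BMP ligands, was the only gene of the 6 apart from GATA4 with every value below 0. Its 5 probes lay between -0.86 and -0.59 on replicate 1, between -0.24 and -0.04 on replicate 2 and between -1.13 and -0.91 on replicate 3. Replicate 2 was thus much closer to 0 than the others, with the probes spread by an SD of 0.09 around -0.16. The brightest probe, at base 532, had -0.59, -0.14 and -0.93 and a mean of -0.55 ± 0.40 (SD, n = 3). That is 1.47-fold less signal in frozen than in vitrified embryos (limma, adjusted p = 1.00). Means of the 5 probes ran from -0.73 to -0.55, with adjusted p between 0.87 and 1.00 in limma and unadjusted p between 0.012 and 0.034. Of the 18 probes, 4 had values below 0 on all 3 arrays together with a mean 1.5-fold lower or more, all of CER1, against 1.24% of all probes. These 4 overlap and are 1 measurement repeated, and the brightest CER1 probe is not among them. With the sign of replicate 2 turned, the probe means ran from -0.60 to -0.46, so the direction of CER1 did not hang on how replicate 2 is read.

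**Figure D3:**
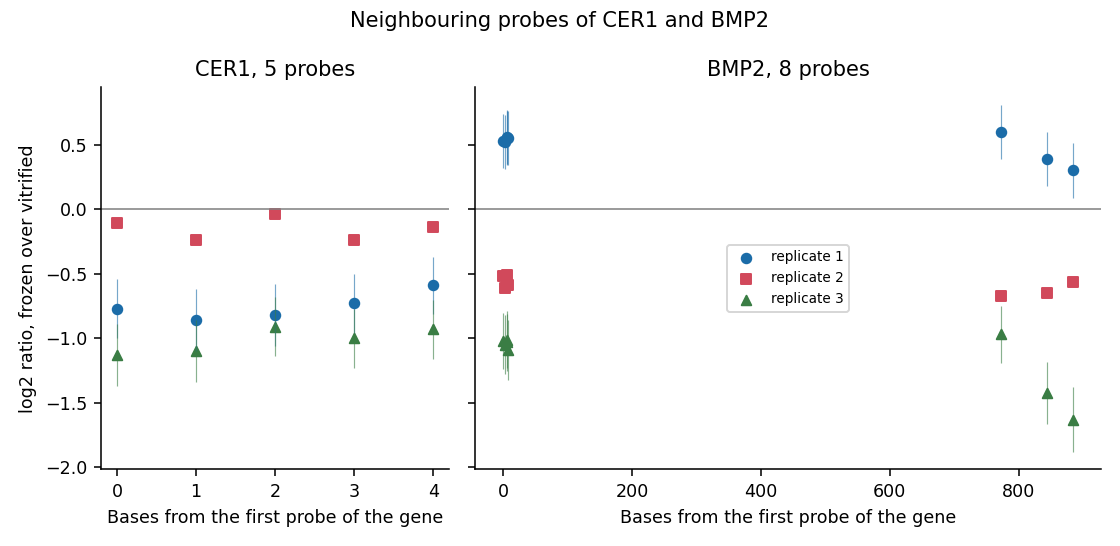
Log2 ratio of frozen over vitrified (vertical axis) against the distance in bases from the first probe of CER1 (left) and BMP2 (right), with a point per probe and array and, for replicates 1 and 3, bars of 1 spot error from the scanner software. The overlapping probes of each gene stay together within an array, while the distal BMP2 probes reach -1.63 on replicate 3.

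GATA4, the hypoblast transcription factor, had -0.50, -0.05 and -0.38 on replicates 1, 2 and 3 from its single probe. All values lay below 0, that of replicate 2 by little. The mean was -0.31 ± 0.23 (SD, n = 3), or 1.24-fold less in frozen than in vitrified embryos (limma, adjusted p = 1.00 and unadjusted p = 0.089). It was -0.28 with the sign of replicate 2 turned. GSC, the organizer homeobox gene, had -0.91, 0.41 and 0.24, a mean of -0.09 ± 0.72 (SD, n = 3; limma, adjusted p = 1.00) and -0.36 with the sign of replicate 2 turned. It was the only one of the 6 genes above 0 on replicates 2 and 3.

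By mean of the brightest probe the order was DKK1, CER1, BMP2, GATA4, GSC and WNT3, but no neighbours in it differed beyond their spread. The difference of DKK1 from CER1 was -0.23 ± 1.32, of CER1 from BMP2 -0.18 ± 0.85, of BMP2 from GATA4 -0.07 ± 0.97, of GATA4 from GSC -0.22 ± 0.56 and of GSC from WNT3 -0.11 ± 1.41 (SD, n = 3 arrays).

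A different background correction and normalization, changed together, moved the replicate 1 ratios of the dim genes more than those of DKK1 and BMP2; which of these steps did so was not tested. Raw signals of the CER1, GATA4, WNT3 and GSC probes were only 2.62 to 8.35 times their local background, against 8.23 to 64.9 times for DKK1 and BMP2. On replicate 1 the raw signal of the brightest CER1 probe over its local background was 4.82 in frozen and 4.51 in vitrified embryos. Its processed ratio was -0.59. The bright DKK1 probe had 46.2 and 18.2 there, with a processed ratio of 0.59. In both probes signal over background lay further towards frozen embryos than the processed ratio, so it is not comparable between channels. With normexp background correction and loess normalization of the scanner files, the 5 CER1 probes had -0.10 to -0.07 on replicate 1 and -0.76 to -0.49 on replicate 3. GATA4 had -0.03 and -0.19, the first WNT3 probe 0.07 and -0.18 and GSC -0.16 and 0.22 on replicates 1 and 3. DKK1 kept 0.45 and -1.40, and BMP2 kept 0.20 to 0.46 and -1.51 to -0.95. The distance from 0 on replicate 1 thus shrank to within the spot error in CER1, GATA4, WNT3 and GSC. Without the offset of 50 in that correction, which by construction pulls dim ratios towards 0, CER1 had -0.11 to -0.08 on replicate 1 and -0.93 to -0.62 on replicate 3.

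Leaving out replicate 1 changed the calls. On replicates 2 and 3 alone, which carry opposite dyes, limma called 10 of the 18 probes at an adjusted p under 0.05: DKK1, all 8 of BMP2 and the WNT3 probe at base 1008, each lower in frozen embryos. It called 3.49% of all probes there (2.42% in the lower direction), so these counts rest on a background above 0. Of the 10 probes, 8 are of BMP2, and 5 of those overlap and are 1 measurement repeated. By the brightest probe of each gene, only DKK1 and BMP2 were called. DKK1 then had a mean of -1.47 (limma, adjusted p = 0.0024), the BMP2 probes had -1.09 to -0.76 (adjusted p = 0.023 to 0.048) and the WNT3 probe had -0.66 (adjusted p = 0.048). The test rests on 2 arrays. CER1, GATA4, GSC and the other WNT3 probe, which is the brighter one, were not called. With the sign of replicate 2 also turned, 0 of the 18 probes passed in limma, as without replicate 2 or without replicate 3. In these settings 274, 1027 and 351 of all probes had an unadjusted p under 0.05, against 3720 without replicate 1.

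**Figure D4:**
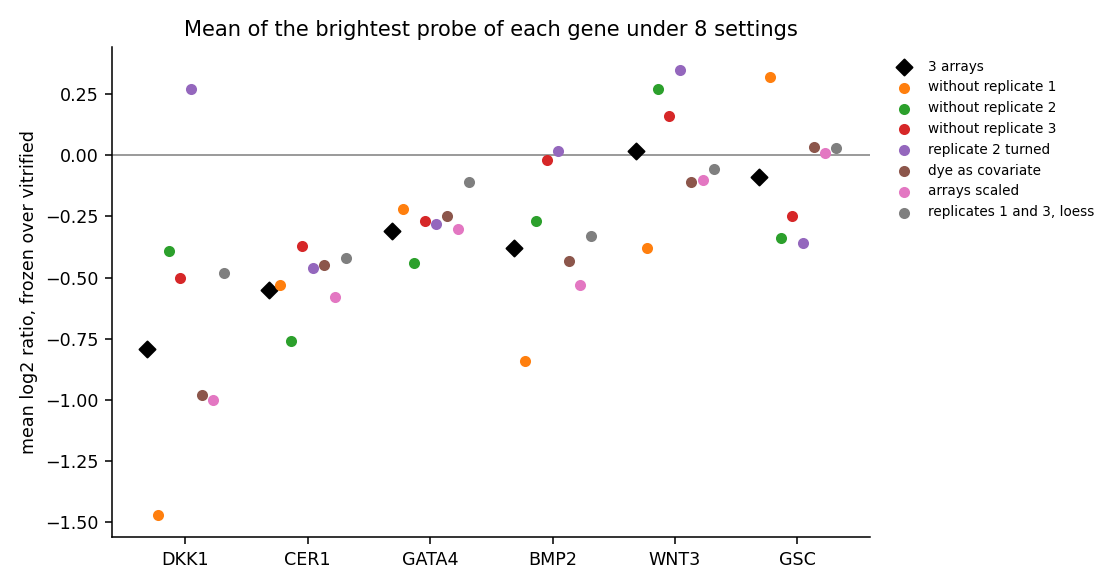
Mean log2 ratio of frozen over vitrified (vertical axis) for the brightest probe of each gene under 8 settings (points; diamonds for all 3 arrays). DKK1 spans -1.47 without replicate 1 to 0.27 with the sign of replicate 2 turned, while CER1 and GATA4 stay below 0 in each setting shown.

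Other genes of the same pathways were taken from lists, which were also chosen with earlier results of these data known. Of 64 Wnt pathway genes, 18 were in the table, with a median mean log2 ratio of -0.01, as over all genes. In limma 0 passed after adjustment, and 2 had an unadjusted p under 0.05, against 4.14% of all genes. These were FZD2, a Wnt receptor, with -0.36, -0.45 and -0.71 on replicates 1, 2 and 3, and WNT11, a non-canonical ligand, with -0.04, -0.87 and -1.26. SFRP2, a secreted Wnt antagonist, had 0.29, -0.79 and -2.19. FZD2 had a mean of -0.51 ± 0.18, WNT11 -0.72 ± 0.62 and SFRP2 -0.89 ± 1.24 (SD, n = 3), and -0.20, -0.14 and -0.37 with the sign of replicate 2 turned. The signs seen in DKK1, BMP2 and WNT3, above 0 on replicate 1 and below on the others, were shown by 4 of the 18, against 14.2% of all genes. These 4 are SFRP2 and, named after their values were seen, WNT5B, LRP6 and GSK3B. Just as many genes of the list had the reverse signs, which are those of GSC, against 25.4% of all genes. They are WNT2, PORCN, LGR4 and CSNK1A1, also named after their values were seen. The list thus did not lean towards the signs of DKK1.

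Of 51 BMP and Nodal pathway genes, 16 were in the table. Their means had a median of -0.09 and 12 of 16 lay below 0, against -0.01 and 53.3% over all genes. None passed in limma after adjustment and 0 had an unadjusted p under 0.05, against 4.14% of all genes. BAMBI, a decoy receptor that dampens BMP signalling, had -0.42, -0.25 and -0.21 and a mean of -0.29 ± 0.11 (SD, n = 3). PCSK6, a convertase that activates Nodal precursors, had -0.73, 0.03 and -0.14. NODAL itself was dim, with a mean log2 signal of 5.01, and had -1.55, 0.38 and -0.38. The signs of BMP2 on the 3 arrays were shared by 4 of the 16 genes, against 14.2% of all genes. All 4 are named after their values were seen: the ligands BMP4 (0.99, -0.90 and -0.48), BMP7 (0.84, -0.75 and -0.25) and GDF3 (1.07, -0.58 and -0.29) and the receptor BMPR2 (0.28, -0.29 and -0.40).

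The hypoblast list, chosen like the others with earlier results of these data known, had 15 of 38 genes in the table. Its values beside those of all genes are therefore description and not support for a difference. Its median was -0.44 against -0.01 over all genes, with 11 of 15 means below 0 against 53.3%. By array the median was -0.13, -0.45 and -0.50 on replicates 1, 2 and 3, and it was 0.03 with the sign of replicate 2 turned. In limma 0 passed after adjustment and 5 had an unadjusted p under 0.05, against 4.14% of all genes. FOXA1, an endoderm transcription factor, had -0.50, -0.47 and -0.65, a mean of -0.54 ± 0.10 (SD, n = 3), from a dim probe (mean log2 signal 5.14). COL4A2, a basement membrane collagen, had -0.43, -0.51 and -0.80, and APOB, a lipoprotein of yolk sac endoderm, had -0.27, -0.81 and -1.88. The other 2 of those 5, named after their values were seen, differed in sign: NR2F2, a nuclear receptor, lay above 0 on every array with 0.59, 0.38 and 0.28, and APOE, an apolipoprotein, had -0.13, -0.70 and -0.50. The signs of DKK1 on the 3 arrays were shared by 3 of the 15, against 14.2% of all genes, and these too are named after their values were seen. APOA1, an apolipoprotein, had 0.51, -1.38 and -2.20, with a mean of -1.03 ± 1.39 (SD, n = 3) and of -0.10 with the sign of replicate 2 turned. RBP4, a retinol carrier, had 0.66, -1.98 and -1.76, and COL4A1, a basement membrane collagen, had 0.30, -0.91 and -1.06. With the sign of replicate 2 turned, RBP4 had a mean of 0.29 and COL4A1 of 0.048. Other genes of the list had other signs. KLF5 had -0.38, 0.38 and 0.66, DAB2 had 0.80, 0.15 and -0.08, LAMC1 had 0.09, -0.39 and 0.44, and OTX2 had -0.86, 0.25 and -0.96. Of the defining hypoblast markers, GATA4 and APOA1 were measured, TTR was on the array but not in the table, and GATA6, SOX17 and PDGFRA had no named probe. Of 23 gastrulation genes only 2 were in the table. MSX2, a homeobox target of BMP signalling, had -0.05, -0.14 and -0.23 and a mean of -0.14 ± 0.09 (SD, n = 3), and -0.046 with the sign of replicate 2 turned.

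**Figure D5:**
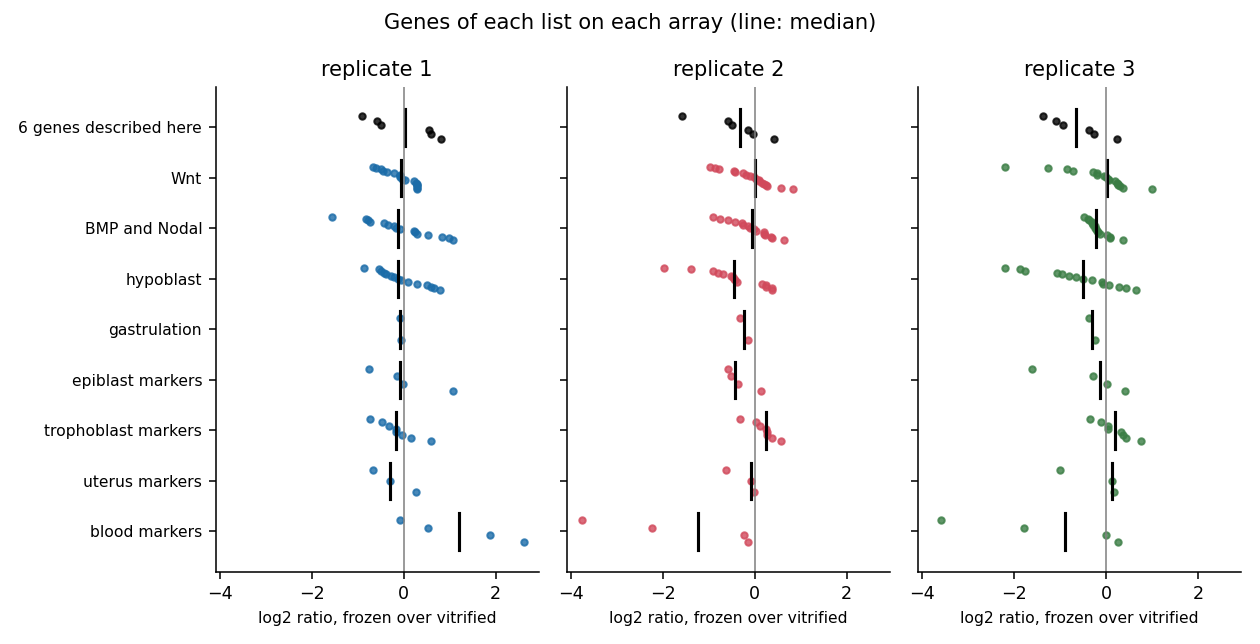
Log2 ratio of frozen over vitrified (horizontal axis) of each gene, by its brightest probe, in the 6 genes described here, 4 pathway lists and 4 marker lists (rows), for each array (panels); the line is the median. The blood markers sit at a median of 1.21 on replicate 1 and -1.24 and -0.90 on replicates 2 and 3.

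Among markers of other cells, the globins had the signs of DKK1, BMP2 and WNT3 on the 3 arrays. Defining genes of the labelled tissue, the blastocyst, were measured for trophoblast (8 of 12 in the table, among them KRT8, KRT19 and GATA3) and epiblast (4 of 10, among them POU5F1), while NANOG, SOX2 and CDX2 had no named probe. Of 10 blood genes 4 were in the table. The globins HBB2, with 2.62, -3.77 and -3.59, and HBA, with 1.88, -2.23 and -1.79, were above 0 on replicate 1 and below 0 on the others, while CD14 had -0.07, -0.24 and -0.01 and S100A9 had 0.54, -0.15 and 0.25. The summed signal of these 4 genes was 15.12 (log2) in frozen and 12.70 in vitrified embryos on replicate 1, and 12.72 and 15.79 on replicate 3. This sum is mostly globin. The mean log2 signal was 13.65 for HBB2 and 11.86 for HBA, against 7.42 for S100A9 and 6.87 for CD14. The leukocyte marker PTPRC was not in the table. Uterine genes, 3 of 8 in the table, had medians of -0.30, -0.09 and 0.13, and their summed signal was 10.28 in frozen and 10.53 in vitrified embryos on replicate 1 and 9.39 and 9.31 on replicate 3. The trophoblast genes had medians of -0.17, 0.25 and 0.19 and the epiblast genes -0.09, -0.44 and -0.13. Within the latter, POU5F1, the pluripotency factor, had -0.75, -0.52 and -1.62, a mean of -0.96 ± 0.58 (SD, n = 3; limma, adjusted p = 0.83, unadjusted p = 0.0086). It was below 0 on every array, as CER1 and GATA4 were, with a mean further from 0 than that of any of the 6 genes, and had -0.62 with the sign of replicate 2 turned. The other epiblast genes in the table did not share this. DPPA5 had -0.15, 0.13 and 0.42, LIN28A had -0.02, -0.36 and 0.03, and GDF3 had 1.07, -0.58 and -0.29. The median of the 4 epiblast means was -0.02. The part of these cells in the ratios of the 6 genes was not tested.

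The genes nearest to each of the 6 over the 3 arrays were found by Euclidean distance among 6512 other genes. PARM1 (0.38, -1.57 and -1.35; distance 0.21) and SRPX (0.79, -1.44 and -1.25; distance 0.27) were nearest to DKK1, and AP4B1 (distance 0.17) and CNPY4 (0.21) to BMP2. B4GALT2 (0.10) and PLAT, the tissue plasminogen activator (0.15), were nearest to CER1, and AP1S2 (0.04) and EIF1 (0.05) to GATA4. H4C9 (0.10) and USP13 (0.16) were nearest to WNT3, and EPB41L5 (0.05) and WDR77 (0.06) to GSC. Distances were largest for DKK1.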

How the data were processed

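Scans were quantified with Agilent Feature Extraction (version 10.10.1.1, per the submitters' processing notes). The deposited scanner files of replicates 1 and 3 hold raw and processed spot intensity in each channel (the latter after background subtraction, detrending and dye normalization), as well as the log10 ratio and its error, per the file headers. The table the authors deposited holds a log2 ratio per probe for 3 arrays. For probes with 1 spot it equalled the processed red over green log2 ratio within 3e-06 on replicates 1 and 3; medians were -0.015, 0.021 and 0.017. Its direction for replicate 2 is unstated, and no source used here gives the authors' probe filter. It has 22839 non-control probes, all of which the scanner files call above background in red and green, with none saturated; 14326 were named through RefSeq's current rabbit table, and 0 other sample columns exist. For replicate 2 only the table was used.

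Ratios were tested against 0 with limma 3.58.1 (lmFit, eBayes; R 4.3.3), adjusted over all probes, threshold 0.05, and tried on simulated data; tables were joined in Python 3.11.15. Spot errors were converted from log10 to log2. A gene stands by its brightest probe. The members and lists were chosen with earlier results of these data known. The text names every member probe, the 3 genes of smallest p per pathway list, the 2 nearest genes per member and marker genes; 1 gene that this rule names is not reported here. Alternatives changed the sign of replicate 2, the arrays used, background correction, scaling, centring, the dye term, the variance prior and a filter on dim probes; the 2 that were added after seeing the data are named as such below. Precision is limited by the number of arrays. Each p-value tests a mean against 0, with a variance taken from the spread between these arrays and moderated over all probes.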

Additional observations from a re-analysis of the deposited data

How the results depend on the processing

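With 3 arrays no setting on all of them called a probe of the 6 genes. Leaving out 1 array gave 0 to 796 called probes over the table and 0 to 10 of the 18, the highest without replicate 1 in both. Of those 10 probes, 8 are of BMP2. With the sign of replicate 2 turned, the mean changed sign in DKK1 (0.27), in the BMP2 probes at bases 1189 (0.0079), 1192 (0.025), 1194 (0.035), 1195 (0.02), 1196 (0.019) and 1962 (0.10) and in the WNT3 probe at base 1008 (0.10). On replicates 2 and 3 alone with that sign turned, chosen after seeing the data, DKK1 had 0.11. The means of GSC and of the WNT3 probe at base 863 were near 0 and changed sign with dye as a covariate (0.035 and -0.11), with arrays scaled (0.011 and -0.10), with normexp and loess (0.03 and -0.056) and with the latter without offset, also added later (0.053 and -0.072). Leaving out 1 array gave -0.34 to 0.32 for GSC, -0.38 to 0.27 for that WNT3 probe, -0.77 to 0.0049 for the BMP2 probe at base 1189 and -0.76 to 0.024 for that at base 1195. Averaging both WNT3 probes gave -0.12. The sign of all CER1 and GATA4 probes was the same in every setting run; GATA4, 2 WNT3 probes and 1 CER1 probe were left out by the filter on dim probes. The cause of these changes was not tested.

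The Wnt list's median was -0.058 on the processed signals of replicates 1 and 3 and 0.036 on replicates 2 and 3 with the sign turned; leaving out 1 array gave -0.058 to 0.018. The hypoblast list's median was 0.027 with the sign of replicate 2 turned, -0.078 on replicates 2 and 3 with it turned, -0.18 with normexp and loess and -0.19 without offset. The gastrulation list had -0.048 and -0.036 under the 2 turned settings. No paired analysis was possible because each array is already 1 direct pair and the labels give a single group of arrays.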
